A study of Mus musculus with 9 samples.

Results

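The 8 genes described here encode the core of interleukin-6 (IL-6) family signalling through STAT3: the ligand Il6, the receptor chains Il6ra, Il6st, Lifr and Osmr, the transcription factor Stat3, and the feedback inhibitors Socs3 and Socs1. They were taken by symbol from the array annotation. All 8 were on the array, among 19938 named genes and 28939 probe sets tested, with 9 probe sets in all because Socs3 has 2; each gene is given by its brighter probe set. Their RNA was read in whole liver of male C57/BL6 mice aged 8 to 9 weeks, on 9 Affymetrix arrays. The 3 groups had 3 arrays each: NEMO knockout crossed with constitutive p21-/- (global p21 double knockout), NEMO knockout (NEMOΔhepa, deleted in hepatocytes) and wild type. The comparisons ask what changes in this pathway when hepatocytes lose NEMO, a subunit of the kinase that activates NF-κB, and what changes further when p21, an inhibitor of cyclin-dependent kinases, is lost as well. No group lacked p21 alone, the driver of the hepatocyte deletion is not given in the sources used here, and the labels describe the arrays as separate animals only through different identifiers, so p-values measure the spread between these samples.

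IL-6 binds its receptor IL-6Rα, encoded by Il6ra, and the pair engages gp130, encoded by Il6st, which activates Janus kinases and through them STAT3. Leukaemia inhibitory factor and oncostatin M use gp130 together with a second long chain, LIFR or OSMR. In hepatocytes this route drives the acute phase genes and is known for its part in regeneration, and STAT3 induces Socs3, whose product binds gp130 and the kinases and shuts the signal off.

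The array labels were checked on the targeted genes. Ikbkg, which encodes NEMO, read 8.10, 8.26 and 8.45 (log2) in the labelled double knockout, 8.23, 8.48 and 8.35 in the NEMO knockout and 8.73, 8.89 and 8.98 in wild type, so it was lowest in the groups labelled as lacking it. The probe set for Cdkn1a, the p21 gene, which is annotated jointly to 4930567H12Rik, averaged 10.78 ± 0.56 in the labelled double knockout, 10.10 ± 0.53 in the NEMO knockout and 8.67 ± 0.91 in wild type (log2, SD, n = 3 each). It was not reduced where the label says that p21 is absent, and where its probes lie relative to the deletion was not analysed here, so directions given for that group depend on how its arrays were labelled. Hepatocyte markers were bright in each group, with albumin (Alb) at 13.80 ± 0.02, 13.76 ± 0.03 and 13.75 ± 0.06 in the labelled double knockout, the NEMO knockout and wild type.

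Against wild type, the 2 gp130 partner chains moved in opposite directions in both knockout groups: Lifr was lower and Osmr higher, each by somewhat under 2-fold, while the differences of Il6ra, Il6st and Stat3 did not pass the test. The feedback inhibitor Socs3 rose in the NEMO knockout. In the NEMO knockout 3 of the 8 genes passed (2 higher, 1 lower), where 7.68% of all probe sets passed. In the labelled double knockout 2 of the 8 passed (1 higher, 1 lower), where 9.32% of all probe sets did. Passing means a limma p-value under 0.05 after Benjamini-Hochberg adjustment over all probe sets, and differences are on the log2 scale with their standard error (SE). In the labelled double knockout the arrays of 3 of the 8 genes did not overlap with wild type, as for 25.1% of all probe sets, and in the NEMO knockout those of 4 of the 8, as for 23.2%. Both comparisons use the same 3 wild type arrays.

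**Figure D1:**
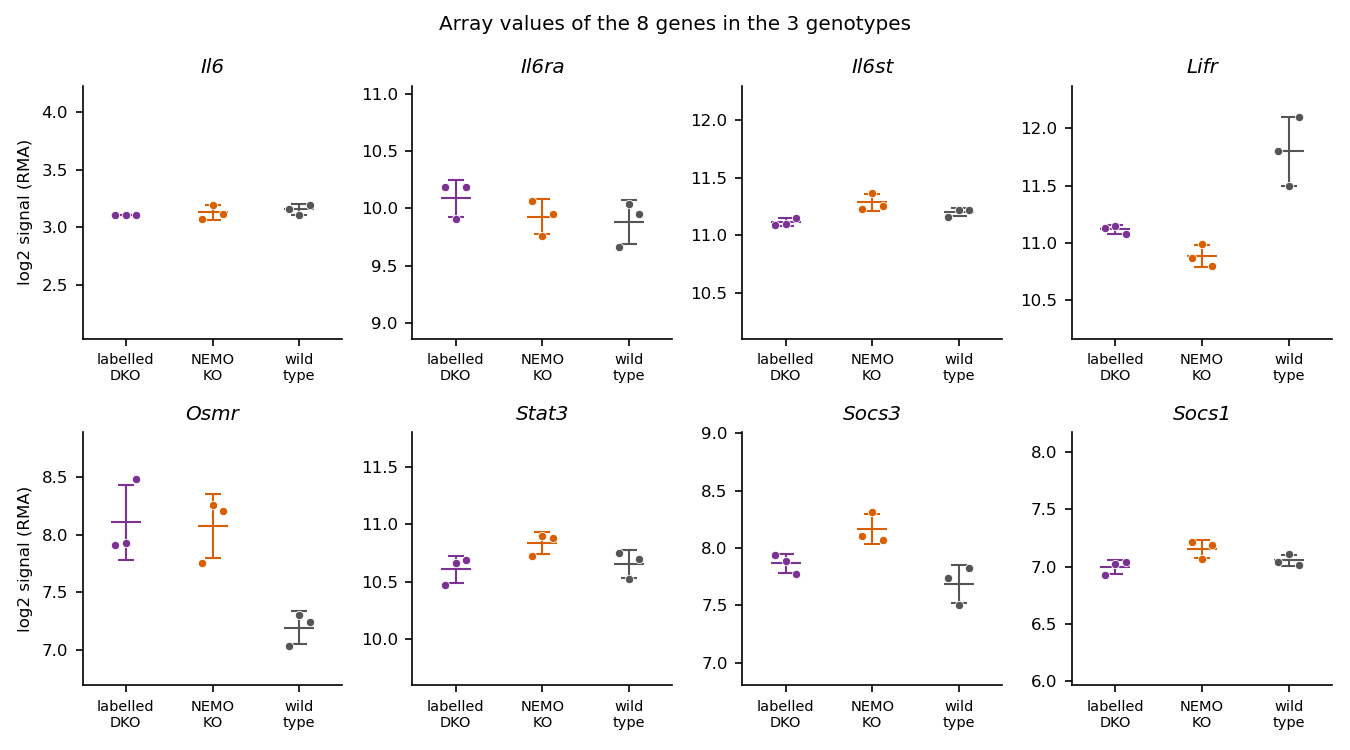
Log2 signal (vertical axes, each spanning the same range of log2 units but centred on its gene) of the 8 genes on the 3 arrays of the labelled double knockout (labelled DKO), the NEMO knockout (NEMO KO) and wild type; points are arrays, bars are the mean ± SD. Lifr lies between 10.80 and 11.15 on the 6 knockout arrays and between 11.50 and 12.10 in wild type, and Osmr shows the reverse order.

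The ligand Il6, a cytokine made chiefly by macrophages and other non-parenchymal cells in liver, gave a signal near the bottom of the array. It read 3.11 on each of the 3 arrays of the labelled double knockout, 3.07, 3.20 and 3.12 in the NEMO knockout and 3.16, 3.11 and 3.20 in wild type (log2). Its mean was at the 3.79 percentile of all probe sets, so a change in Il6 RNA may not be visible at this brightness. The value of the 3 labelled double knockout arrays, 3.10705, was also that of wild type replicate 2, and why it repeats was not tested. The SD of the labelled double knockout is therefore 0, so the SE given next may understate the spread. The difference was -0.05 ± 0.06 in the labelled double knockout and -0.03 ± 0.06 in the NEMO knockout against wild type (limma adjusted p = 0.755 and 0.859).

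Among 8 other ligands of the family listed, 7 were measured, 1 rose in each knockout comparison and none fell. Over all probe sets 5.81% rose and 3.51% fell in the labelled double knockout, and 5.66% rose and 2.02% fell in the NEMO knockout. This list and those below were chosen with earlier results of these data known, so their counts are descriptions. The ligand that rose was Clcf1, a cytokine that signals through gp130, LIFR and the ciliary neurotrophic factor receptor. Clcf1 read 7.10, 7.19 and 7.29 in the labelled double knockout, 7.39, 7.49 and 7.57 in the NEMO knockout and 6.92, 6.47 and 6.58 in wild type. All 6 knockout arrays were above the 3 wild type arrays. The difference was 0.54 ± 0.11 in the labelled double knockout and 0.83 ± 0.11 in the NEMO knockout (limma adjusted p = 0.0181 and 0.00253). The first of these calls was lost without labelled double knockout replicate 2 or 3 or wild type replicate 2 or 3 (highest adjusted p = 0.0751) and with only those groups in the fit (adjusted p = 0.0501). Oncostatin M (Osm), the ligand of OSMR, averaged 4.71 ± 0.04, 4.75 ± 0.22 and 4.73 ± 0.15 in the labelled double knockout, the NEMO knockout and wild type, at the 20.5 percentile of brightness, and Lif averaged 5.16 ± 0.03, 5.07 ± 0.26 and 5.12 ± 0.0004.

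Il6ra, the chain that binds IL-6 and decides which cells answer to it directly, varied as much within groups as between them. It read 10.18, 9.90 and 10.18 in the labelled double knockout, 10.07, 9.76 and 9.95 in the NEMO knockout and 9.66, 10.03 and 9.95 in wild type. The groups overlapped, and the difference from wild type was 0.21 ± 0.12 and 0.05 ± 0.12 (limma adjusted p = 0.407 and 0.881). The 95% intervals allow a ratio to wild type of 0.953 to 1.40 in the labelled double knockout and of 0.851 to 1.25 in the NEMO knockout.

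Il6st, whose product gp130 is shared by most cytokines of the family, had the narrowest spread within each group of the 4 receptor chains. Its groups lay close together. It read 11.09, 11.10 and 11.15 in the labelled double knockout, 11.23, 11.37 and 11.26 in the NEMO knockout and 11.16, 11.22 and 11.22 in wild type. The 3 groups did not overlap, in the order NEMO knockout, wild type, labelled double knockout from high to low. The differences were small and did not pass, at -0.08 ± 0.06 in the labelled double knockout and 0.09 ± 0.06 in the NEMO knockout (limma adjusted p = 0.519 and 0.497). The intervals allow ratios to wild type of 0.857 to 1.04 and of 0.964 to 1.17.

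Lifr, which pairs with gp130 to bind leukaemia inhibitory factor, fell in both knockout groups. It read 11.13, 11.15 and 11.08 in the labelled double knockout, 10.87, 10.99 and 10.80 in the NEMO knockout and 11.80, 11.50 and 12.10 in wild type. The highest knockout array was below the lowest wild type array, and the wild type arrays were the most scattered (SD 0.30, against 0.04 and 0.10). The difference was -0.68 ± 0.13 in the labelled double knockout (ratio 0.624, 95% interval 0.509 to 0.766, limma adjusted p = 0.0114) and -0.91 ± 0.13 in the NEMO knockout (ratio 0.532, interval 0.433 to 0.653, adjusted p = 0.00305). In whole liver, fewer cells of a type and less RNA per cell cannot be told apart. Of 10 hepatocyte markers 8 were measured and none passed in either comparison by limma, with 1 higher and 1 lower at an unadjusted p under 0.05 in the labelled double knockout and 1 lower in the NEMO knockout, where 21% and 20.3% of all probe sets reached that level (10.2% and 10.5% higher, 10.8% and 9.78% lower). Their summed linear signal ran over 73808 to 82739, 74135 to 79508 and 78153 to 81802 array units in the labelled double knockout, the NEMO knockout and wild type. These markers lay from the 98.6 to the 99.97 percentile of brightness. Whether so bright a signal still follows the amount of RNA was not tested.

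Osmr, the oncostatin M receptor chain, which in mouse carries the oncostatin M signal together with gp130, rose in both knockout groups. It read 7.91, 7.93 and 8.48 in the labelled double knockout, 7.75, 8.26 and 8.21 in the NEMO knockout and 7.03, 7.30 and 7.24 in wild type. No knockout array reached down to the wild type range, and labelled double knockout replicate 3 was the highest array. The difference was 0.92 ± 0.18 in the labelled double knockout (ratio 1.89, 95% interval 1.43 to 2.49, limma adjusted p = 0.0118) and 0.88 ± 0.18 in the NEMO knockout (ratio 1.84, interval 1.40 to 2.44, adjusted p = 0.0159). The second call was lost without NEMO knockout replicate 2 or 3 or wild type replicate 1 (adjusted p = 0.0632, 0.0697 and 0.0606), with differences of 0.79, 0.82 and 0.80.

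Markers of some other liver cells moved with Osmr, and their part in its rise was not tested. Over all probe sets 5.81% rose and 3.51% fell in the labelled double knockout, and 5.66% rose and 2.02% fell in the NEMO knockout. Of 12 markers of stellate cells and fibroblasts 10 rose and none fell in either comparison, and the summed signal was 13302 to 14151 in the labelled double knockout, 13439 to 15524 in the NEMO knockout and 7305 to 8073 in wild type. Of 9 measured markers of infiltrating macrophages 8 rose and none fell in either comparison, with sums of 3846 to 4674, 3914 to 4364 and 1351 to 1620. Of 8 Kupffer cell markers 5 rose and 1 fell in each comparison, with sums of 5748 to 6288, 5319 to 6018 and 3668 to 4059. The marker that fell was Cd163, which averaged 6.23, 5.47 and 7.31 in the labelled double knockout, the NEMO knockout and wild type. Clec4f and Timd4 differed by 0.15 ± 0.09 and 0.09 ± 0.15 in the NEMO knockout and did not pass (limma adjusted p = 0.424 and 0.797). The Kupffer cell markers thus did not move as 1 group. Of 6 measured cholangiocyte markers 2 rose in the labelled double knockout and 3 in the NEMO knockout, with sums of 708 to 1017, 835 to 1124 and 538 to 689. Of 8 endothelial markers none passed by limma, with 2 and 0 at an unadjusted p under 0.05, where 21% and 20.3% of all probe sets reached that level. The sums overlapped (5983 to 7107, 6342 to 6445 and 6279 to 6508). Of 7 markers of T and NK cells none passed in the labelled double knockout and 3 rose in the NEMO knockout. Their sums were 466 to 547, 583 to 753 and 478 to 491. Of 3 measured B cell markers none passed in either comparison, with sums of 165 to 193, 178 to 228 and 146 to 209. Neutrophil markers are given with Lcn2 below. Array signals have no true 0, so none of these markers can be called absent. The genes whose pattern over the 9 arrays lay nearest to that of Osmr, among 17153 named genes and by the root mean square difference of values centred on each gene's mean, were Fyb (0.08 log2 units), an adaptor protein of T cells and myeloid cells, Lair1 (0.10), an inhibitory collagen receptor of leukocytes, and Cd44 (0.10), the hyaluronan receptor. The spread of Osmr itself, measured in the same way, was 0.47. Fyb averaged 8.19 ± 0.30, 8.23 ± 0.20 and 7.38 ± 0.17 in the labelled double knockout, the NEMO knockout and wild type. For Lifr (spread 0.41) the nearest were Slc39a2 (0.12), a zinc transporter, Mcm10 (0.12), a replication factor, and Acsm2 (0.13), listed as a medium-chain acyl-CoA synthetase.

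The difference Osmr minus Lifr within each array joins both values in 1 number per sample; it compares groups and not the levels of the 2 genes, and it follows from the values above. It was -3.22, -3.22 and -2.59 in the labelled double knockout, -3.12, -2.73 and -2.59 in the NEMO knockout and -4.77, -4.19 and -4.85 in wild type. The 6 knockout arrays did not overlap with wild type. The mean was 1.60 higher in the labelled double knockout and 1.79 higher in the NEMO knockout than in wild type, and differed by -0.20 between the knockout groups. The planned exact permutation test gave p = 0.1 in each comparison with wild type (adjusted p = 0.15) and 0.5 between the knockout groups. With 3 against 3 arrays it cannot go below 0.1, so it could not pass. Both genes had already been compared on the same arrays.

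**Figure D2:**
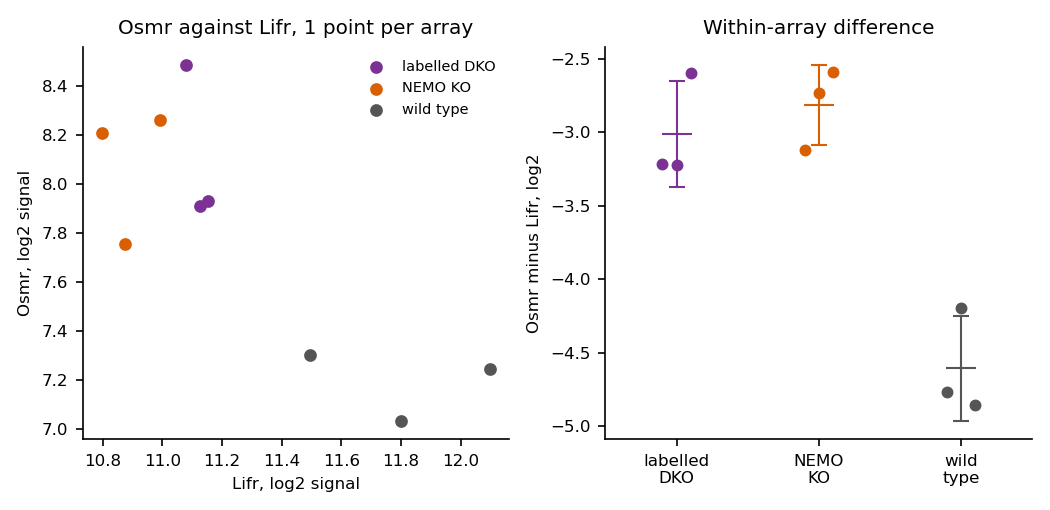
Left, the log2 signal of Osmr (vertical) against that of Lifr (horizontal), 1 point per array, for the labelled double knockout (labelled DKO), the NEMO knockout and wild type. Right, Osmr minus Lifr on each array with the mean ± SD; the 6 knockout arrays lie between -3.22 and -2.59 and the wild type arrays between -4.85 and -4.19.

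Osmr and Lifr are neighbours on chromosome 15, with 0 protein-coding genes between them in the NCBI gene table of GRCm38.p6. The protein-coding genes on either side, picked after the values of the pair had been seen, were Rictor beside Osmr and Egflam beside Lifr. Rictor differed from wild type by 0.05 ± 0.11 and 0.06 ± 0.11, and Egflam by 0.03 ± 0.07 and 0.17 ± 0.07, in the labelled double knockout and the NEMO knockout (limma adjusted p = 0.867, 0.817, 0.866 and 0.181). Neither flanking gene passed. Fyb, the next beyond Rictor and the gene named above, rose by 0.81 in the labelled double knockout and 0.85 in the NEMO knockout (limma adjusted p = 0.0134 and 0.0116). The first call was lost without wild type replicate 1 (adjusted p = 0.0537) and the second without NEMO knockout replicate 3 (0.0529).

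The bases before the annotated starts of these 2 genes are shown because their RNAs moved in opposite directions, and Lifr has 2 annotated starts. Each line gives the 250 bases before a start on the gene's own strand, from RefSeq on GRCm38.p6: the upstream Lifr start at chr15:7129322-7129571 (plus strand), the downstream Lifr start at chr15:7140292-7140541 (plus strand) and Osmr at chr15:6874314-6874563 (minus strand).
Lifr upstream start: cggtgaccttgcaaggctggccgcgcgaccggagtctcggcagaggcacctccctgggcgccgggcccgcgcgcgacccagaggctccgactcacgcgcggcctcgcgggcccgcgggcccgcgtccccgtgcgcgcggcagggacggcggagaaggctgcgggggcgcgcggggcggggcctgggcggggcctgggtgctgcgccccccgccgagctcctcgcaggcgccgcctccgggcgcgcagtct
Lifr downstream start: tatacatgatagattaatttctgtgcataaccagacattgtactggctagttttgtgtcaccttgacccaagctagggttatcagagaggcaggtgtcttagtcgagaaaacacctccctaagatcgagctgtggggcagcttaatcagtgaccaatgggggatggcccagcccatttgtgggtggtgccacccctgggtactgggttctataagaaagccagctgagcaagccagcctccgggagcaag
Osmr: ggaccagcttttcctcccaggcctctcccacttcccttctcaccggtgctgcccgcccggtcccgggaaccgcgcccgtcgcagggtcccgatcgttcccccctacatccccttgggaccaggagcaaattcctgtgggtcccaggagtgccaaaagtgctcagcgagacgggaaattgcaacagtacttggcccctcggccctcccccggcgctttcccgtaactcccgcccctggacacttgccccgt
The 2 Lifr windows differ in base composition, with 82.4% G and C before the upstream start and 50.8% before the downstream start, and the Osmr window has 66%. The array reads Lifr with a single probe set, so the use of the 2 starts was not measured. The windows were searched on both strands for the STAT motif TTCNNNGAA, the AP-1 motif TGANTCA and the NF-κB consensus, and none of the 3 windows holds a match, which says only that these letters are not in them. Of 32851 such windows in the genome, 7.02%, 6.75% and 7.25% hold a match to the 3 motifs.

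Of 5 other receptor chains listed, 3 were measured, and 1 of them, Il27ra, rose in both comparisons. Over all probe sets 5.81% rose in the labelled double knockout and 5.66% in the NEMO knockout. The product of Il27ra pairs with gp130 to receive interleukin-27. Il27ra read 7.01, 7.12 and 7.16 in the labelled double knockout, 7.20, 7.44 and 7.22 in the NEMO knockout and 6.76, 6.83 and 6.70 in wild type, with no overlap between either knockout group and wild type. The difference was 0.33 ± 0.08 and 0.52 ± 0.08 (limma adjusted p = 0.0349 and 0.00483). The first of these calls was lost without labelled double knockout replicate 2 or 3 or any of the 3 wild type arrays (highest adjusted p = 0.126), and with the arrays quantile normalised again or centred (0.0617 and 0.0922).

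Stat3, the transcription factor on which the pathway converges, changed little in RNA. It read 10.47, 10.66 and 10.69 in the labelled double knockout, 10.73, 10.90 and 10.88 in the NEMO knockout and 10.75, 10.52 and 10.70 in wild type. Both knockout groups overlapped with wild type, and the differences were -0.05 ± 0.09 and 0.18 ± 0.09 (limma adjusted p = 0.839 and 0.319). STAT3 acts after phosphorylation, which RNA arrays do not measure. Of 8 listed kinases, other STATs and adaptors, such as Jak1, Jak2 and Tyk2, 7 were measured and none passed limma in either comparison. At an unadjusted p under 0.05, 1 was lower in each. Of all probe sets, 10.8% were lower at that level in the labelled double knockout and 9.78% in the NEMO knockout.

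Socs3, which the STAT3 pathway induces and which limits signalling at gp130, rose in the NEMO knockout. It read 7.94, 7.89 and 7.77 in the labelled double knockout, 8.10, 8.32 and 8.07 in the NEMO knockout and 7.74, 7.50 and 7.83 in wild type. The NEMO knockout arrays were above all others, and the labelled double knockout overlapped with wild type. The difference from wild type was 0.18 ± 0.10 in the labelled double knockout (ratio 1.13, 95% interval 0.965 to 1.32, limma adjusted p = 0.385) and 0.47 ± 0.10 in the NEMO knockout (ratio 1.39, interval 1.19 to 1.63, adjusted p = 0.0206). The call in the NEMO knockout was lost without NEMO knockout replicate 2 or wild type replicate 2 (adjusted p = 0.0711 and 0.0586) and with only those groups in the fit (0.0531). The dimmer probe set of Socs3, annotated from a single sequence record, did not show the rise (-0.04 ± 0.12, adjusted p = 0.876), so the 2 probe sets disagree.

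The window before the Socs3 start is shown because it holds the only STAT motif found before the starts of the 8 genes. It lies at chr11:117969367-117969616 (minus strand, RefSeq, GRCm38.p6), and the capitals mark TTCTTAGAA, whose first base is 154 bases before the start.
Socs3: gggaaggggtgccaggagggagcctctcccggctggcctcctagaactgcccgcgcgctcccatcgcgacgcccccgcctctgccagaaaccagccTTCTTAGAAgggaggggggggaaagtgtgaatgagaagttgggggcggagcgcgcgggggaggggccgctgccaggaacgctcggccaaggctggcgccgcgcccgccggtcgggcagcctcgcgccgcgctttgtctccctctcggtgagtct
Of 32851 such windows in the genome, 7.02% hold a STAT match. The window before the Il6 start holds an NF-κB match, GGGATTTTCC, and an AP-1 match, TGAGTCA. Their first bases are 44 and 249 bases before that start. Each match is a description of the letters and was not tested for binding.

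The genes nearest to Socs3 in pattern (its own spread was 0.22) were Sfxn3 (0.06), a mitochondrial carrier, Ms4a4b (0.09), a T cell surface protein, and Palmd (0.09). Socs1, an inhibitor that blocks Janus kinases and is known for limiting interferon signals, read 6.93, 7.02 and 7.04 in the labelled double knockout, 7.21, 7.06 and 7.19 in the NEMO knockout and 7.04, 7.11 and 7.01 in wild type. Its groups overlapped with wild type, and the differences were -0.06 ± 0.07 and 0.10 ± 0.07 (limma adjusted p = 0.732 and 0.449). Of 10 other inhibitors listed, such as Socs2, Cish, Pias3 and Ptpn1, all were measured and none passed limma in either comparison. At an unadjusted p under 0.05, 1 was higher in the labelled double knockout and 0 in the NEMO knockout, where 10.2% and 10.5% of all probe sets were. Cish ran from 6.91 to 9.60 within wild type alone, so the arrays could not resolve a moderate change in it.

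**Figure D3:**
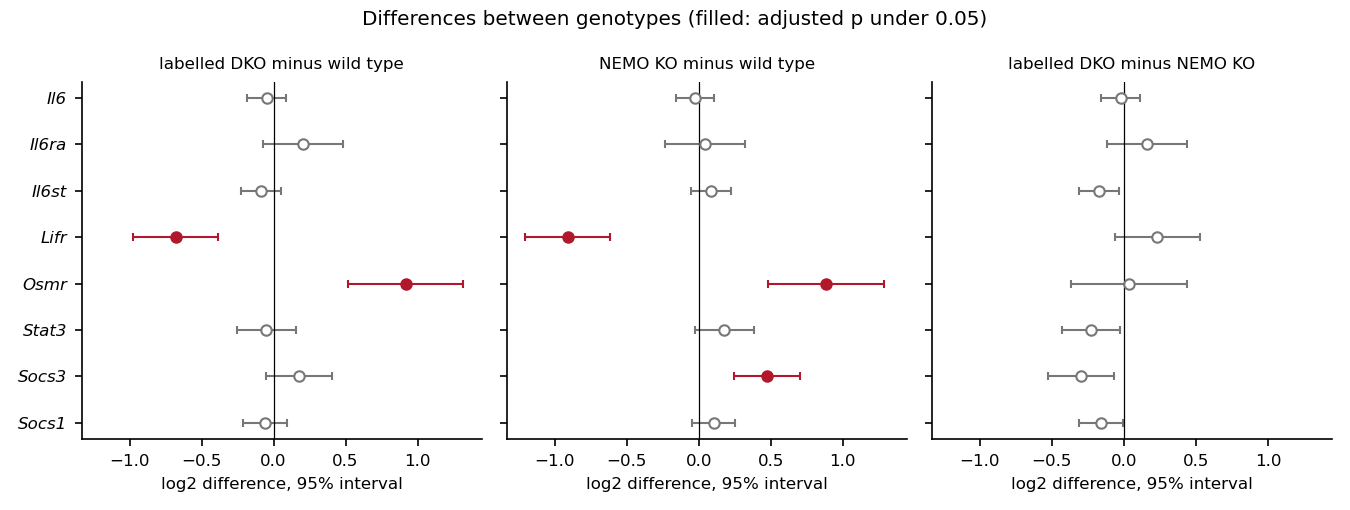
Log2 difference (horizontal axis) with its 95% interval for the 8 genes, labelled double knockout (labelled DKO) minus wild type, NEMO knockout minus wild type, and labelled double knockout minus NEMO knockout; filled points passed at an adjusted p under 0.05. Lifr and Osmr lie on opposite sides of 0 in both comparisons with wild type, and no gene passed between the knockout groups.

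The genes that STAT3 is known to induce moved in both directions. The lists of these genes and of the acute phase genes below were chosen with earlier results of these data known. Their counts and medians are therefore descriptions. Over all probe sets 5.81% rose and 3.51% fell in the labelled double knockout, and 5.66% rose and 2.02% fell in the NEMO knockout. Of 17 early and general STAT3 targets, 3 rose and 1 fell in the labelled double knockout (median difference 0.29, against -0.03 over all probe sets), and 4 rose and 1 fell in the NEMO knockout (median 0.19, against -0.04). Those that rose in both were cyclin D1 (Ccnd1), 2.70-fold (95% interval 1.92 to 3.79) and 3.99-fold (2.84 to 5.61), and Timp1, an inhibitor of matrix proteases, 2.35-fold (1.69 to 3.28) and 3.42-fold (2.45 to 4.78) (limma adjusted p = 0.00357, 0.000881, 0.0067 and 0.00128). Both are also made or induced in cells other than hepatocytes. The survival and spindle protein Birc5 passed as higher in the labelled double knockout (0.81 ± 0.14). In the NEMO knockout it differed by 0.46 ± 0.14 (limma adjusted p = 0.0765), without overlap with wild type. The adhesion molecule Icam1 (0.49 ± 0.09) and the AP-1 subunit Junb (0.53 ± 0.14) passed as higher in the NEMO knockout. Icam1 read 8.12, 8.26 and 8.19 in the labelled double knockout, above the 7.80, 7.82 and 8.07 of wild type. Junb averaged 7.19 ± 0.13 and 7.03 ± 0.26 in these groups, with overlap. None of the 17 targets passed between the knockout groups. The call of Junb, at adjusted p = 0.0472, was lost without any 1 of 8 arrays, wild type replicate 1 being the exception (highest 0.163), and also with quantile normalisation again (0.0828), centring (0.0636), array weights (0.0830) and only those groups in the fit (0.0929). The angiogenic factor Vegfa fell in both (-0.42 ± 0.08 and -0.44 ± 0.08).

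The liver acute phase genes, the classical readout of IL-6 acting on hepatocytes, moved in both directions. Their counts are to be read against all probe sets. Of those, 5.81% rose and 3.51% fell in the labelled double knockout, and 5.66% rose and 2.02% fell in the NEMO knockout. Of 25 listed and measured, 4 rose and 4 fell in the labelled double knockout (median difference 0.01), and 2 rose and 2 fell in the NEMO knockout (median 0.06). The largest rise was that of Lcn2, a siderophore-binding protein that is also made by neutrophils, which read 10.10, 9.87 and 10.50 in the labelled double knockout, 9.37, 10.12 and 10.82 in the NEMO knockout and 8.22, 8.23 and 7.30 in wild type. No knockout array overlapped with wild type, and the difference was 2.24 ± 0.37 and 2.19 ± 0.37 (4.72-fold and 4.55-fold, limma adjusted p = 0.00497 and 0.0064). The interleukin-1 receptor antagonist Il1rn rose by 1.05 ± 0.15 and 1.14 ± 0.15. Neutrophil markers moved less: of 7 measured, 1 rose in the labelled double knockout and 2 in the NEMO knockout, with summed signals of 314 to 340, 354 to 464 and 284 to 291 in the labelled double knockout, the NEMO knockout and wild type, and their part in the rise of Lcn2 was not tested.

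Other acute phase genes were lower. Saa3, a serum amyloid A made in macrophages and other cells as well as in liver, read 5.82, 5.50 and 5.62 in the labelled double knockout, 5.63, 5.15 and 5.54 in the NEMO knockout and 6.40, 6.81 and 6.61 in wild type. It differed by -0.96 ± 0.15 and -1.17 ± 0.15 (limma adjusted p = 0.0037 and 0.00159), with no overlap. Saa3 was dim, at the 39.4 percentile of brightness, and the Saa genes did not all fall. In the NEMO knockout Saa2 (78.7 percentile) and Saa1 lay higher, by 0.90 ± 0.27 and 0.28 ± 0.29, and Saa4 lower, by -0.46 ± 0.13. These differences did not pass (limma adjusted p = 0.0873, 0.645 and 0.0709). In the labelled double knockout the lipopolysaccharide-binding protein Lbp (-0.56 ± 0.14) and haptoglobin (Hp, -0.50 ± 0.11) fell, and the orosomucoid Orm2 rose (1.03 ± 0.22). In the NEMO knockout these genes differed in the same directions without passing, and without overlap with wild type. Lbp was -0.44 ± 0.14, Hp -0.36 ± 0.11 and Orm2 0.84 ± 0.22 there (limma adjusted p = 0.0983, 0.0774 and 0.0536). None of the 25 acute phase genes passed between the knockout groups. C-reactive protein (Crp), a weak acute phase protein in mouse, fell in the NEMO knockout (-0.48 ± 0.09). Crp averaged 11.34 in the labelled double knockout, 11.13 in the NEMO knockout and 11.62 in wild type. The calls of Lbp, Hp and Orm2 in the labelled double knockout were each lost without at least 1 array (highest adjusted p = 0.114, 0.0699 and 0.0708). The fibrinogen chains Fga, Fgb and Fgg, which IL-6 induces, did not pass in either comparison and lay between -0.15 and 0.03. Members of the Saa and Orm families have near-identical copies, so their probe sets can share signal.

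**Figure D4:**
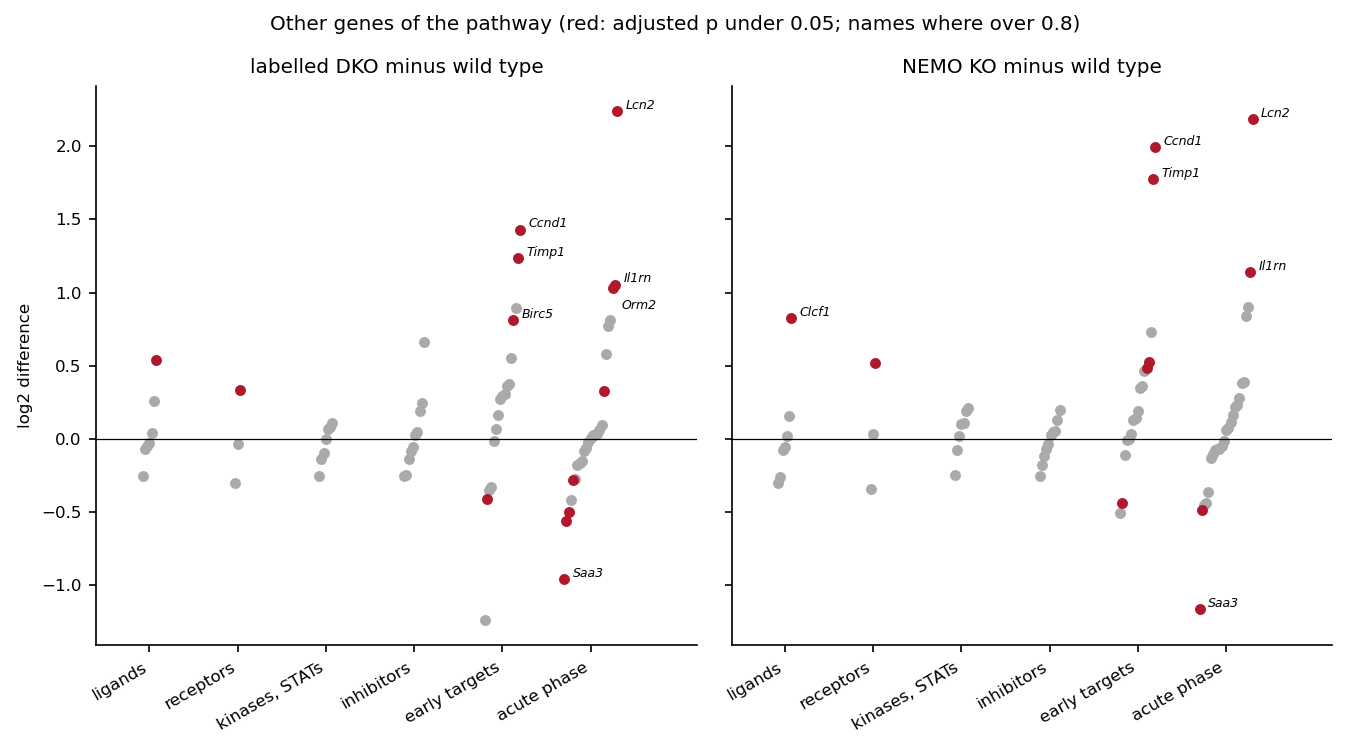
Log2 difference from wild type (vertical axis) of the 69 other measured genes of the pathway in 6 lists, for the labelled double knockout (labelled DKO, left) and the NEMO knockout (right); each point is a gene, red points passed at an adjusted p under 0.05 and are named where the difference exceeds 0.8. Lcn2 is the highest point in both panels, and most points lie near 0.

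Over the 6 lists together, 9 of 69 measured genes rose and 5 fell in the labelled double knockout, where 5.81% of all probe sets rose and 3.51% fell. In the NEMO knockout 8 rose and 3 fell, where 5.66% rose and 2.02% fell. The signs of the differences are relative to the other probe sets on each array, because the values had been normalised to a common distribution.

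Between the 2 knockout groups none of the 8 genes passed limma, where 0.197% of all probe sets did (0.0864% higher and 0.111% lower). At an unadjusted p under 0.05 there were 4, all lower in the labelled double knockout, where 7.46% of all probe sets reached that level (3.47% higher and 3.99% lower): Socs3 (-0.30 ± 0.10), Stat3 (-0.23 ± 0.09), Il6st (-0.17 ± 0.06) and Socs1 (-0.16 ± 0.07), with unadjusted p = 0.0161, 0.0321, 0.0215 and 0.0406 and adjusted p = 0.528, 0.624, 0.561 and 0.64. For 5 of the 8, these 4 and Lifr, which lay higher in the labelled double knockout (0.23 ± 0.13, adjusted p = 0.755), the arrays of the groups did not overlap, as was so for 10.7% of all probe sets. Osmr differed by 0.03 ± 0.18, with a 95% interval of -0.37 to 0.44 (adjusted p = 0.986), Il6ra by 0.16 ± 0.12 and Il6 by -0.02 ± 0.06. Of 7 markers of T and NK cells none passed limma and 4 were lower at an unadjusted p under 0.05, while Cd4 averaged 6.65 in the labelled double knockout and 6.47 in the NEMO knockout (summed signal of the 7 markers 466 to 547 in the labelled double knockout and 583 to 753 in the NEMO knockout). Of 7 neutrophil markers none passed and 3 were lower at that level. The part of these cells in the result was not tested. Of the 69 other pathway genes none passed, with 5 higher and 9 lower at an unadjusted p under 0.05, to be read against the same 3.47% and 3.99%.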

How the data were processed

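Whole-liver RNA was measured in 9 samples on 1-colour Affymetrix arrays. The deposited table holds log2 values, 1 per probe set and array, made by the authors with RMA per the submitters' processing notes; the log base was taken from RMA and the range of the values, while versions, build and filters were not stated in them. RMA includes quantile normalisation, so a general rise or fall of RNA would not be seen.

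Of 35556 probe sets, 6617 with identifiers below the first annotated one were taken to be controls and left out. Of the 28939 tested, 21789 had 1 gene symbol in the platform annotation, 1621 several and 5529 none; 21698 matched the GRCm38.p6 gene table. The brightest probe set stood for a gene. Some listed genes were not analysed here.

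Groups were compared with limma 3.58.1 (R 4.3.3, lmFit and eBayes) on all 9 arrays with 1 mean per group, adjusted by Benjamini-Hochberg. Osmr minus Lifr had an exact permutation test, adjusted over the 3 comparisons, and is read as a description. The fit was tested on simulated data. The number of arrays limits the precision. The members and lists were chosen with earlier results of these data known. Named genes are the 8 members, up to 6 called genes per list and comparison, and the 3 genes nearest in pattern to each called member. Osm, Lif, Cish, the fibrinogens, Saa1, Saa2, Saa4, Alb, Cd163, Clec4f, Timd4 and the neighbouring genes were named after their values were seen. Alternatives were other normalisations, a filter on dim probe sets, array weights, an intensity trend, pairs of groups, a replicate block and each array left out.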

Additional observations from a re-analysis of the deposited data

How the results depend on the processing

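Lifr and Osmr kept their direction under the 18 alternatives in both comparisons with wild type, Lifr with its call in each (-0.83 to -0.53 for the labelled double knockout, -1.06 to -0.76 for the NEMO knockout) and Osmr with its call in each for the labelled double knockout; the calls of Osmr and Socs3 in the NEMO knockout that were lost are given above. Of the 24 differences of the 8 genes, 17 changed neither side of the threshold nor sign on their own probe set. Those that changed sign were near 0 and had not passed: in the NEMO knockout Il6 was 0.019 with quantile normalisation again and 0.022 with cyclic loess, and Il6ra was -0.017 with each array centred on its median; leaving out each array in turn gave ranges of -0.059 to 0.0028 for Il6 and -0.064 to 0.13 for Il6ra there, -0.12 to 0.017 for Stat3 in the labelled double knockout against wild type, and -0.15 to 0.13 for Osmr and -0.051 to 0.011 for Il6 between the knockout groups. The dimmer Socs3 probe set gave -0.045 in the NEMO knockout and 0.14 between the knockout groups. Leaving out each array, the number of the 8 genes called in the NEMO knockout ran from 1 (without NEMO knockout replicate 2) to 3, and all probe sets called ran from 1382 (without NEMO knockout replicate 3) to 2335 there, from 1601 (without labelled double knockout replicate 3) to 2720 in the labelled double knockout and from 10 (without labelled double knockout replicate 3) to 44 between the knockout groups. That last count, 57 with all arrays, was 31 with centring, 30 when adjusted over single-symbol probe sets, 23 with only the 2 groups and 18 with the replicate number as a block. For pathway genes the same alternatives were added after seeing the data: with each array left out, those called lower ran from 2 to 5 in the labelled double knockout (5 with all arrays) and from 3 to 6 in the NEMO knockout (3 with all arrays); centring gave 7 in each, and for the labelled double knockout the intensity trend gave 7 and array weights and the filter on dim probe sets 6 each; 7 of 25 calls were lost under at least 1 alternative. With centring the median over all probe sets was -0.09 for the labelled double knockout and -0.10 for the NEMO knockout. Same-numbered replicates were not established as pairs: their deviations from the group means correlated at r = -0.12 to 0.39 across probe sets, above 0.1 in 3 of 9 pairs. In 5 of the 9 pairs the array correlated best with its own number. Between the knockout groups r was 0.39, 0.08 and 0.25 for replicates 1, 2 and 3, each best with its own number. A factor shared by replicate number is therefore possible there and was not tested. The replicate block changed no call of the 8 genes. Il6 has no value when probe sets under the median level are left out. The cause of these changes was not tested.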
